A study of Mus musculus with 48 samples.

Results

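The MHC class II presentation genes described here are Cd74, H2-Aa, H2-Ab1, H2-Eb1, H2-DMa, H2-DMb1, Ciita and Cd86. They were chosen by name, with earlier results of these data known, and all 8 were among the 55357 genes of the count table and among the 21390 genes that passed the filter on low counts. RNA was sequenced from the dorsal dentate gyrus of 24 adult wild-type C57BL/6J mice, 12 injected with kainate and 12 with saline into the hippocampus of one side under isoflurane anesthesia. Kainate, a glutamate receptor agonist, induced status epilepticus (SE), and the injected side is called the epileptogenic zone (EZ) and the opposite side the peri-ictal zone (PIZ). Both sides of every mouse were taken 3, 7 or 14 days after injection, which gave 48 libraries in 12 groups of 4 (region, injection and day). No group carried a genetic change. Saline mice also received a needle on the EZ side, so their PIZ is the only tissue without a needle track from mice not given kainate. Each group mixed male and female mice, and the sex of single libraries was not used here.

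MHC class II molecules carry peptides from ingested or internal proteins to the cell surface, where CD4 T cells read them. An alpha and a beta chain (H2-Aa and H2-Ab1 for I-A in the mouse, H2-Eb1 for the beta chain of I-E) assemble with the invariant chain Cd74, which blocks the groove and guides the complex to endosomes. There proteases trim Cd74 down to a short peptide, and H2-DM, built from H2-DMa and H2-DMb1 or its close copy H2-DMb2, exchanges that peptide for an antigenic one. Ciita is the transactivator without which these genes are hardly transcribed, and it is induced by interferon-gamma. Cd86 is a co-stimulatory ligand for Cd28 that a T cell needs in addition to the peptide. In the uninjured brain, class II is found mainly on border-associated macrophages and dendritic cells of the meninges, the choroid plexus and the spaces around vessels, while resting microglia carry little of it and can acquire it after injury.

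H2-Aa lies on chromosome 17 of GRCm39 at 34493404 to 34506798 on the minus strand, H2-Ab1 at 34476663 to 34488393, H2-Eb1 at 34504236 to 34535648, H2-DMb1 at 34372046 to 34379204 and H2-DMa at 34338515 to 34358958, all within the same MHC interval. Ciita lies on chromosome 16 at 10297923 to 10347694 and Cd86 on the same chromosome at 36424044 to 36486443. Reads were counted by strand, so H2-Aa and H2-Eb1, whose gene models overlap on opposite strands, were told apart. The model of H2-DMa overlaps Brd2 on the opposite strand and the non-coding gene Gm50336 on its own strand. A read with several placements was counted at its primary alignment only, which makes the split between H2-DMb1 and its copy H2-DMb2 uncertain.

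The stretches in front of the transcription starts are shown because Ciita works through them: class II promoters are known for an X box, bound by the Rfx proteins and Creb1, and a Y box with the letters ATTGG, bound by the NF-Y proteins. RefSeq windows on GRCm38.p6 were at hand for 4 of the 8 members (H2-Aa, H2-Eb1, H2-DMa and H2-DMb1). Each line below holds the 250 bases before the start, 5′ to 3′ on the strand of the gene, and capitals mark ATTGG or, where it lies on the other strand, CCAAT. The stretches are chr17:34287824-34288073 (minus strand), chr17:34305617-34305866, chr17:34152941-34153190 and chr17:34122582-34122831 (plus strand), the last being the more upstream of the H2-DMa starts.
H2-Aa: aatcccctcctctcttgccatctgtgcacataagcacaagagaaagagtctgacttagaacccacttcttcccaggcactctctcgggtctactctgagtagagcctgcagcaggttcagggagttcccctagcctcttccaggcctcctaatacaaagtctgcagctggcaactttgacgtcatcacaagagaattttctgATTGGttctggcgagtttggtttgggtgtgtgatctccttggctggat
H2-Eb1: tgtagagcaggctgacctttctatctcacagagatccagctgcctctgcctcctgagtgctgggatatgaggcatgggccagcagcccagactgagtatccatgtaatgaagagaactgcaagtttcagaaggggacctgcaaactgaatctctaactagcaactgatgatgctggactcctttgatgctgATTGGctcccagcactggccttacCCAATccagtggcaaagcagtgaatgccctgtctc
H2-DMb1: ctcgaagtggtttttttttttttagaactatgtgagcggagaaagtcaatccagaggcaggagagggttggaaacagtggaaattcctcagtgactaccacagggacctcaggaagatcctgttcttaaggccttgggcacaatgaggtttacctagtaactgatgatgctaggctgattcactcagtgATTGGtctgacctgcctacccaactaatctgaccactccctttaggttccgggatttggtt
H2-DMa: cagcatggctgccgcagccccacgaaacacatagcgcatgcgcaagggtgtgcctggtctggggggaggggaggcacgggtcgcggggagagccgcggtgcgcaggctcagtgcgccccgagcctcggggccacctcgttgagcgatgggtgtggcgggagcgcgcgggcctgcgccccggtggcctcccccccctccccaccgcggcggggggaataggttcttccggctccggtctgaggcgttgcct
ATTGG began 48 bases before the start of H2-Aa, 59 before that of H2-Eb1 and 61 before that of H2-DMb1, counting the last base before the start as 1, and H2-Eb1 held it again on the other strand. The more upstream window of H2-DMa did not hold ATTGG, and the window of its other start held it from base 198. On both strands, ATTGG was in 33.8% of the 32851 RefSeq windows of this length, so a match is common. ACAGATG, a form of the X box core, was in 4.15% of the windows and among the members only in H2-Aa, on the other strand. There it lay 232 to 226 bases before the start, far upstream of ATTGG. An X box with other letters would be missed by this search, so no window was shown to lack one. TTCNNNGAA, the letters of an interferon-gamma activated site, was in 7.02% of the windows and in none of these members' windows. Once the sequences had been seen, the longest stretches shared between windows were looked up. H2-Eb1 and H2-DMb1 shared the 13 letters aactgatgatgct, from 89 and 92 bases before their starts, a stretch held by 2 of the 32851 windows. In both genes it lay upstream of ATTGG. A stretch of 13 T was shared by H2-DMb1 and the other window of H2-DMa. None of these matches was tested as a binding site.

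A library held 22108562.5 counts at the median (17762656 to 25712975). The dentate granule cell marker Prox1 averaged 247 CPM (counts scaled to the total of the library) and had at least 2144 counts in every library. The sum of 5 granule cell markers had medians of 534.9 CPM in the EZ of kainate mice on day 7 and 946 CPM after saline, and was lowest at 178.2 CPM in 1 of these kainate libraries. CPM were scaled by TMM, which corrects for libraries dominated by a few genes. In bulk tissue, more cells of a type and more RNA per cell cannot be told apart, which holds for every value below.

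In the 24 saline libraries the members stood at low levels. In CPM per kilobase of exon (RPKM, mean ± SD, n = 24 libraries of 12 mice), H2-DMa was at 2.94 ± 0.284, Cd74 at 0.755 ± 0.469, Cd86 at 0.739 ± 0.316 and H2-DMb1 at 0.661 ± 0.298. The chain genes were lower on the same scale, with H2-Eb1 at 0.302 ± 0.136, H2-Ab1 at 0.278 ± 0.174 and H2-Aa at 0.173 ± 0.118. Ciita was lowest at 0.0146 ± 0.00951 RPKM and had between 0 and 9 counts in a saline library. Thus H2-DMa, and not a chain gene, had the highest level at baseline. H2-Ea, which encodes the alpha chain of I-E and is known to be disrupted in C57BL/6 mice, had 0 counts in 48 of 48 libraries, so H2-Eb1 was measured here without its partner chain.

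In the EZ 3 days after injection, 7 of the 8 members were differentially expressed genes (DEG, adjusted p under 0.01 and fold change over 1.5), all higher after kainate, against 16.1% of all genes tested that were called higher. The median log2 fold change of the 8 was 3.86 and that of all genes 0.03, and the same 7 had every kainate library above every saline library, as had 23.9% of all genes tested. Cd74 was at 23.5, 88.0, 67.7 and 9.72 CPM in kainate mice 30, 38, 42 and 44 and at 2.56, 2.93, 1.89 and 2.53 CPM in saline mice 18, 29, 37 and 41. Every kainate library was above every saline library, yet the kainate mice differed widely among themselves. The fitted change of Cd74 was 19.0-fold (log2 4.25, SE 0.76, edgeR quasi-likelihood adjusted p = 2.47e-05). H2-Aa ran from 4.13 to 48.2 CPM against 1.01 to 1.62 CPM (log2 4.24, SE 0.73). H2-Ab1 ran from 4.29 to 45.0 CPM against 0.968 to 1.62 CPM (log2 4.27, SE 0.70), and H2-Eb1 from 3.87 to 35 CPM against 0.830 to 1.5 CPM (log2 4.0, SE 0.68). The chains thus rose together with their chaperone and by a similar factor. Mouse 38 was highest for all 8 members, and mouse 44 lowest for Cd74, the chain genes and Ciita.

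The transactivator Ciita had 70, 144, 146 and 48 counts in the same kainate mice and 4, 6, 9 and 6 counts in the saline mice. Its summed counts differed by a ratio of 13.7 (exact 95% interval 9.16 to 21.4, which covers counting error only), and its fitted log2 change was 3.73 (SE 0.63, adjusted p = 1.09e-05). H2-DMb1 rose less, from between 1.24 and 3.02 CPM to between 5.85 and 12.4 CPM (log2 2.21, SE 0.41, adjusted p = 3.81e-05). Cd86 was at 9.95, 15.3, 14.0 and 10.8 CPM after kainate and at 3.35, 6.84, 4.47 and 4.58 CPM after saline (log2 1.38, SE 0.36, adjusted p = 0.00196). Cd86 therefore changed by 2.60-fold at a time when the chains had changed by 16.0-fold to 19.2-fold. Its call was lost without saline mouse 18, at a log2 change of 1.24 and an adjusted p of 0.0115. H2-DMa was at 12.5 to 18.7 CPM against 12.1 to 15 CPM and was not called (log2 0.23, SE 0.14, adjusted p = 0.189).

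On day 7 in the EZ all 8 members were called higher, against 20.6% of all genes tested, with a median log2 fold change of 3.70 against 0.01 for all genes. None of the 8 overlapped between kainate and saline (H2-DMa by a margin below the digits given), as was the case for 23.7% of all genes tested in that direction. Cd74 was at 85.3, 18.2, 27.3 and 54.6 CPM in kainate mice 21, 23, 26 and 35 and at 3.32, 4.78, 4.75 and 1.93 CPM in saline mice 20, 33, 34 and 89 (log2 3.65, SE 0.74, adjusted p = 6.83e-05). H2-Aa, H2-Ab1 and H2-Eb1 changed by 17.2-fold, 19.8-fold and 17.9-fold (log2 4.10, 4.30 and 4.16). Ciita, at 97, 15, 38 and 106 counts against 3, 8, 2 and 3, changed by log2 3.75 (SE 0.67). These sizes are close to those of day 3, whereas the fitted changes of H2-DMb1 and Cd86 were larger than on day 3. No member was called in the test between these days. H2-DMb1 was at 21.8, 6.37, 8.85 and 16.7 CPM against 0.919, 1.17, 1.5 and 1.08 CPM (log2 3.52, SE 0.44, adjusted p = 4.7e-08). Cd86 was at 42.7, 13.1, 21.8 and 34.5 CPM against 3.47, 3.08, 2.73 and 3.63 CPM (log2 3.12, SE 0.38, adjusted p = 4.55e-08). In both genes even the lowest kainate library was far above the highest saline one, and mouse 23 was the lowest kainate mouse for all 8 members. H2-DMa was at 30.6, 14.7, 17.3 and 20.5 CPM against 12.1 to 14.7 CPM, a change of 1.52-fold (log2 0.60, SE 0.14, adjusted p = 4.42e-04). That call was lost without kainate mouse 21 (log2 0.36, adjusted p = 0.0186) or saline mouse 89 (log2 0.55), or without the low-count filter (log2 0.57), and in a fit to the compared libraries alone (log2 0.60, adjusted p = 0.0476).

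**Figure D1:**
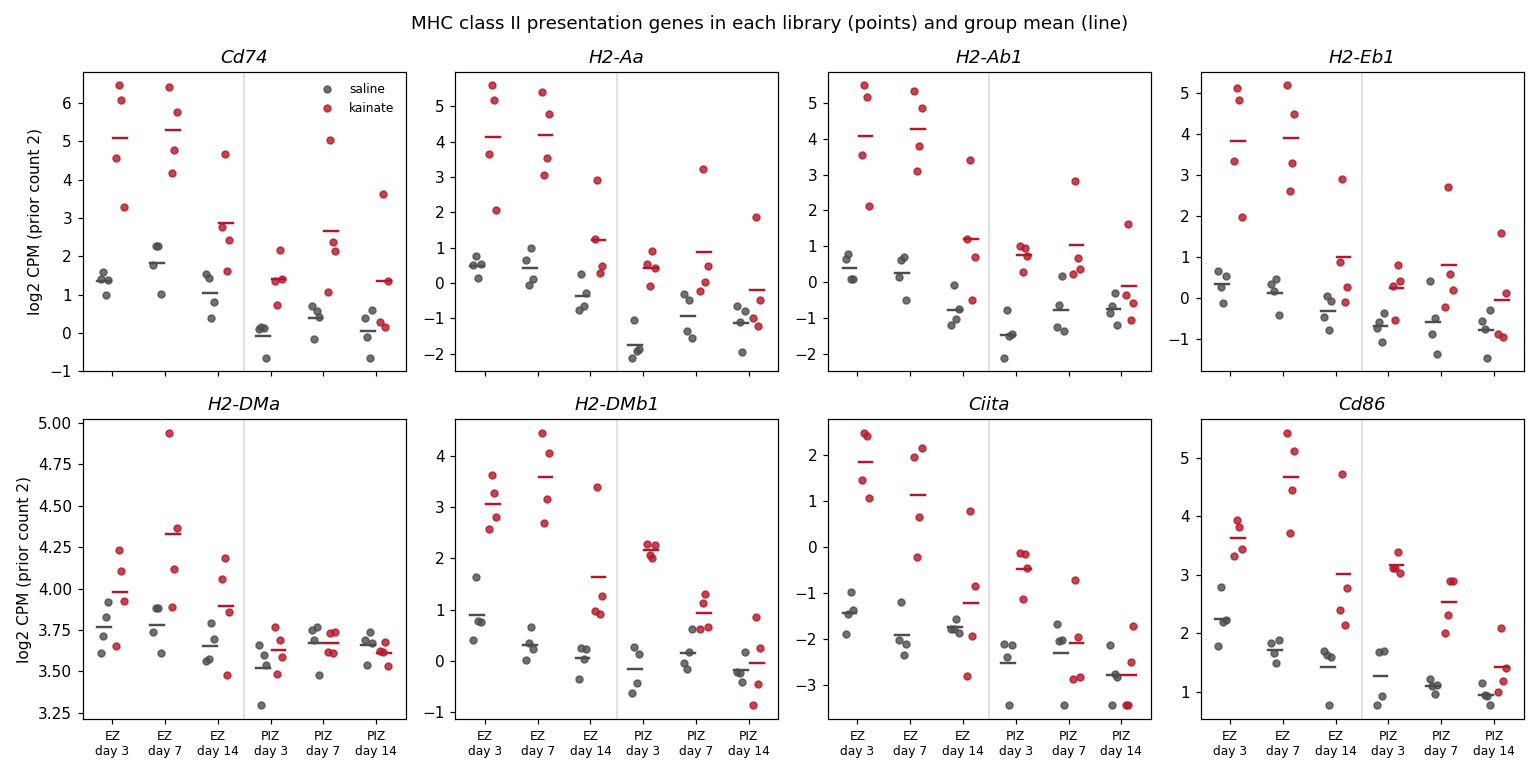
Level of each member in each library as log2 CPM with a prior count of 2 (y axis) by region and day (x axis); red points are kainate and grey points saline mice, and lines are means of 4. In the EZ on day 7 all kainate points lie above all saline points in every panel, and 1 kainate mouse stands high in the PIZ panels of Cd74 and the chain genes on day 7 and on day 14.

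On day 14 in the EZ, H2-DMb1 and Cd86 were the 2 members called, against 2.32% of all genes tested that were called higher. H2-DMb1 was at 1.87, 10.5, 1.80 and 2.30 CPM in kainate mice 14, 27, 36 and 40 against 0.692 to 1.10 CPM after saline (log2 2.11, SE 0.44, adjusted p = 0.00271). Cd86 was at 5.19, 26.1, 4.33 and 6.73 CPM against 1.62 to 3.17 CPM (log2 1.98, SE 0.38, adjusted p = 0.00134). Kainate libraries stayed above saline libraries in both, and mouse 27 was highest for all 8 members. Without mouse 27 neither was called (H2-DMb1 log2 1.06, adjusted p = 0.525, Cd86 log2 1.02, adjusted p = 0.265). Both calls were also lost without saline mouse 31 (H2-DMb1 adjusted p = 0.0192, Cd86 0.0159) or saline mouse 39 (0.0152 and 0.0105), and that of H2-DMb1 without saline mouse 24 (0.0190) or 28 (0.0121). In a fit to the compared libraries alone both missed the threshold (adjusted p = 0.56 each), with log2 changes of 2.12 and 2.0, and 0 of 18735 genes were called higher in that fit. Cd74 was at 6.76, 25.5, 2.98 and 5.31 CPM against 2.82, 2.60, 1.23 and 1.67 CPM, without overlap but with an adjusted p of 0.0632 (log2 2.29, SE 0.74). H2-Ab1 had the largest fitted change (log2 2.84, SE 0.77, adjusted p = 0.0201), from 2.22, 10.5, 0.618 and 1.55 CPM against 0.346 to 0.849 CPM. DESeq2 called it as well (log2 2.85, adjusted p = 0.00154), which made 3 members against 3.3% of all genes called higher, and edgeR called it without kainate mouse 36 (adjusted p = 0.00442) or 40 (0.00977). Without mouse 27 the change of Cd74 was log2 1.28 and that of H2-Ab1 1.49. Ranges did not overlap for 4 of the 8 members, against 4.58% of all genes tested in that direction.

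In the PIZ on day 3, H2-DMb1 and Cd86 were again the 2 members called, against 7.12% of all genes tested that were called higher. H2-DMb1 was at 4.79, 4.08, 3.96 and 4.72 CPM in kainate mice 30, 38, 42 and 44 and at 0.557, 1.12, 0.650 and 1.0 CPM in saline mice 18, 29, 37 and 41 (log2 2.4, SE 0.44, adjusted p = 1.52e-04). Cd86 was at 8.56, 8.57, 10.4 and 8.07 CPM against 1.62, 3.11, 1.82 and 3.14 CPM (log2 1.87, SE 0.38, adjusted p = 4.42e-04). The highest kainate mouse was 1.21 times the lowest for H2-DMb1 and 1.29 times for Cd86, against 2.12 and 1.54 times in the EZ. Cd74 was at 2.46, 1.58, 4.39 and 2.56 CPM against 0.975, 1.02, 0.997 and 0.547 CPM (log2 1.62, SE 0.84, adjusted p = 0.159). H2-Aa, at 0.849 to 1.77 CPM against 0.139 to 0.389 CPM, and H2-Ab1, at 1.13 to 1.93 CPM against 0.139 to 0.486 CPM, missed the threshold at log2 2.53 and 2.47 (adjusted p = 0.0523 and 0.0349). H2-Eb1 overlapped between kainate and saline (log2 1.09, SE 0.78, adjusted p = 0.326). Ciita had 62 counts over the kainate mice and 8 over the saline mice, a ratio of 7.10 (exact 95% interval 3.39 to 17.2, adjusted p = 0.0125 in the fit). So 6 of the 8 members had no overlap between kainate and saline libraries here, against 17.1% of all genes tested. The PIZ levels of Cd74 and the chain genes were far below those of the EZ, while the median EZ to PIZ ratio of CPM within a kainate mouse was 1.34 for Cd86 and 1.94 for H2-DMb1. DESeq2 also called H2-Aa, H2-Ab1 and Ciita in the same comparison, and edgeR fitted to these 8 libraries alone also called Cd74, H2-Aa and H2-Ab1, which makes 5 called members in each, against 7.51% and 9.31% of all genes called higher in these fits.

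On day 7 in the PIZ no member was called by edgeR, while DESeq2 called 2 (Cd74 and Cd86). An unadjusted p under 0.05 was reached by 5 members and by 3104 of the 21390 genes tested. The share of all genes tested that were called higher was 0.15% with edgeR and 0.741% with DESeq2. Cd74 was at 1.99, 32.7, 5.10 and 4.32 CPM in kainate mice 21, 23, 26 and 35 and at 1.53, 0.806, 1.40 and 1.24 CPM after saline (log2 3.14, SE 0.79, adjusted p = 0.0316). The PIZ of mouse 23 held 9.35 CPM of H2-Aa, 7.06 of H2-Ab1 and 6.50 of H2-Eb1, where the other 3 kainate mice held between 0.770 and 1.5 CPM of these chains. The same library was not high in Cd86 (4.91 CPM, others 3.94 to 7.39 CPM) or H2-DMb1 (2.10 CPM, others 1.45 to 2.38 CPM). Without mouse 23 the log2 change of Cd74 was 1.61 (adjusted p = 0.275), of H2-Aa 1.08, of H2-Ab1 1.18, of H2-Eb1 0.73 and of Cd86 1.59 (adjusted p = 0.0313). Cd86, at 3.94, 4.91, 7.31 and 7.39 CPM against 1.87 to 2.25 CPM, missed the threshold in the full fit (log2 1.51, SE 0.39, adjusted p = 0.0374). Ciita had 17 counts over the kainate mice, 11 of them in mouse 23, and 10 over the saline mice, a ratio of 1.49 (exact 95% interval 0.646 to 3.65). In all, 5 of the 8 members did not overlap between kainate and saline, against 7.63% of all genes tested.

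On day 14 in the PIZ no member was called by edgeR or by DESeq2, while 0.00935% of all genes tested were called higher. An unadjusted p under 0.05 was reached by 1 member (Cd74) and by 1277 of the 21390 genes tested. Ranges overlapped for all 8, and 3.7% of all genes tested had every kainate library higher. Cd74 was at 1.13, 12.3, 1.02 and 2.47 CPM in kainate mice 14, 27, 36 and 40 against 0.550 to 1.42 CPM (log2 2.05, SE 0.81, adjusted p = 0.671). Mouse 27 was again the high one, with 3.54 CPM of H2-Aa, 3.01 of H2-Ab1 and 2.91 of H2-Eb1, and without it the change of Cd74 was log2 0.58. Its Cd86 was at 4.16 CPM, against 1.90 to 2.57 CPM in the other kainate mice. Ciita had 6 counts over the 4 kainate libraries and 5 over the saline ones, a ratio of 1.19 (exact 95% interval 0.302 to 4.92), so no difference was detectable at this depth.

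**Figure D2:**
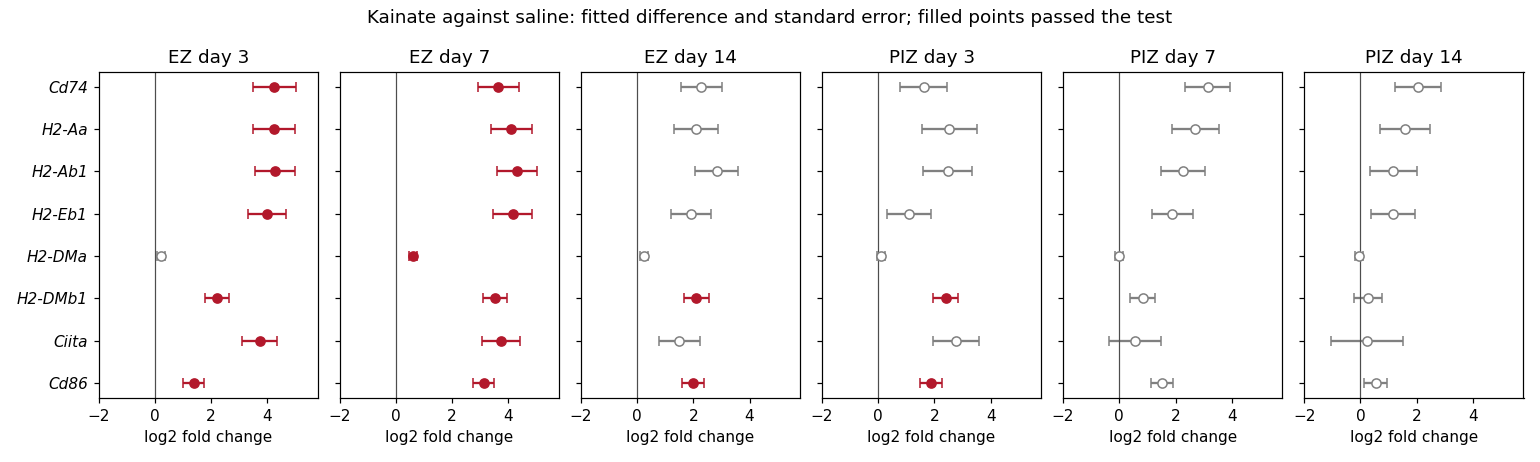
Fitted log2 fold change of kainate against saline (x axis) with its standard error (bars) for each member (y axis) in each region and day, from edgeR; filled red points passed the threshold and open grey points did not. Filled points number 7, 8 and 2 in the EZ on days 3, 7 and 14 and 2, 0 and 0 in the PIZ.

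Whether the kainate effect differed between the sides was tested as the EZ effect minus the PIZ effect. On day 3 no member was called by edgeR or DESeq2, and 0.0374% of all genes tested were called higher. An unadjusted p under 0.05 was reached by 2 members and by 3828 of the 21390 genes tested. H2-Eb1 (log2 2.91, SE 1.04, adjusted p = 0.143) and Cd74 (log2 2.63, SE 1.12, adjusted p = 0.213) had the largest differences, while those of H2-DMb1 (log2 -0.18, SE 0.58) and Cd86 (log2 -0.50, SE 0.52) were negative. On day 7, H2-DMb1 was called (log2 2.69, SE 0.62, adjusted p = 0.00336), against 7% of all genes tested that were called higher. That call was lost without kainate mouse 21 (adjusted p = 0.0346) or 35 (0.0162) or without saline mouse 20 (0.0131) or 89 (0.0180). Without kainate mouse 23, 4 members were called (H2-Eb1, H2-DMa, H2-DMb1 and Ciita), against 10.7% of all genes called higher in that fit. With the mouse as a replicate block, 2 members were called, H2-DMb1 (log2 2.53, SE 0.48) and Cd86 (log2 1.51, SE 0.38, adjusted p = 0.00647), against 6.95% of all genes. On day 14 no member was called by edgeR or DESeq2, while 0% of all genes tested were called. An unadjusted p under 0.05 was reached by 2 members and by 1562 of the 21390 genes tested.

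Within kainate mice, Cd74 was higher in the EZ than in the PIZ in 11 of 12, with a median ratio of 5.65, and H2-DMb1 and Cd86 in 12 of 12, with median ratios of 3.03 and 2.64. The exception for Cd74 was mouse 23 on day 7, with a ratio of 0.555. Saline mice differed between sides as well: Cd74 was higher in the EZ in 12 of 12, with ratios from 1.18 to 5.92 and a median of 2.47. H2-Aa was higher in 11 of 12 saline mice (median ratio 3.17), H2-Eb1 and Cd86 in 11 of 12 each (1.96 and 1.59) and H2-Ab1, H2-DMb1 and Ciita in 10 of 12 each. In the fit over all libraries no member was called between the saline sides, by edgeR or DESeq2, and 0.0234% of all genes were called higher. An unadjusted p under 0.05 was reached by 5 members and by 1908 of the 21390 genes tested. The log2 differences of Cd74 (1.36, SE 0.48, adjusted p = 0.432) and H2-Aa (1.62, SE 0.54, adjusted p = 0.389) were the largest. Fitted to the 24 saline libraries alone, 4 members were called (Cd74, H2-Aa, H2-Ab1 and Cd86), against 0.798% of all genes tested that were called higher in that fit.

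**Figure D3:**
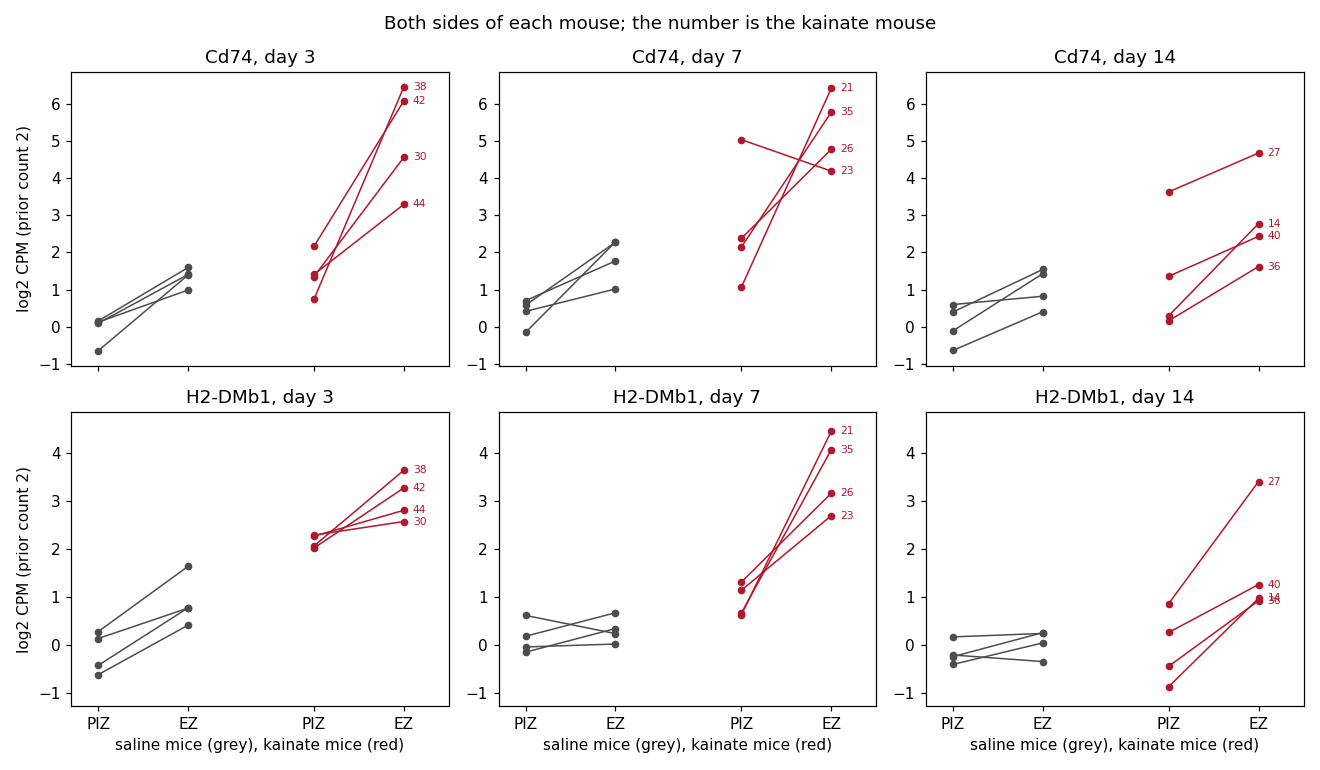
Cd74 (top) and H2-DMb1 (bottom) as log2 CPM with a prior count of 2 (y axis) in the PIZ and the EZ of the same mouse, joined by a line, on days 3, 7 and 14; grey lines are saline mice and red lines kainate mice with their numbers. The Cd74 line of mouse 23 on day 7 falls from PIZ to EZ, and the lines of all other kainate mice rise.

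Between days, none of the 8 EZ effects passed the test from day 3 to day 7 (edgeR and DESeq2 called 0, and 0.112% of all genes were called higher). An unadjusted p under 0.05 was reached by 2 members and by 2565 of the 21390 genes tested. Cd86 (log2 1.74, SE 0.51, adjusted p = 0.110) and H2-DMb1 (log2 1.31, SE 0.58, adjusted p = 0.348) had the largest differences, and those of Cd74 (log2 -0.60, SE 0.98), H2-Ab1 (log2 0.04, SE 0.93) and Ciita (log2 0.02, SE 0.56) were near 0 relative to their errors. From day 7 to day 14 the EZ effects of all 8 were smaller, by log2 values of -0.34 to -2.25. Of these, 0 were called by edgeR or DESeq2, and 0.15% of all genes were called lower. An unadjusted p under 0.05 was reached by 4 members and by 7081 of the 21390 genes tested. Without kainate mouse 27, 4 were called lower on day 14 than on day 7: Cd86 (log2 -2.10, adjusted p = 9.08e-05), H2-DMb1 (log2 -2.46), H2-Eb1 (log2 -3.41) and Ciita (log2 -3.54). In that fit 13.1% of all genes tested were called lower. In the PIZ no member was called from day 3 to day 7 by edgeR or DESeq2, and 0.00935% of all genes were called lower. An unadjusted p under 0.05 was reached by 1 member (H2-DMb1, log2 -1.56, SE 0.63) and by 2270 of the 21390 genes tested. Ordering the 12 group means of log2 CPM, Cd74 ran from 5.29 ± 1.0 (SD, n = 4) in the EZ of kainate mice on day 7 to -0.07 ± 0.39 in the PIZ of saline mice on day 3. None of its 11 neighbouring pairs of groups in that order had separate ranges, and the same was true of every member other than H2-DMb1, in which the EZ of kainate mice on day 3 lay wholly above the next group, the PIZ of kainate mice on day 3.

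Of 10 partner genes of the pathway listed, 8 could be tested, and H2-Ea and H2-Eb2 were too low. In the EZ 7 were called higher and 1 lower on day 3, and the same numbers on day 7, against 16.1% and 20.6% of all genes tested that were called higher. The 3 with the highest level were proteases that trim Cd74 or prepare antigen: Ctss rose by log2 1.70 and 3.65 on days 3 and 7, Lgmn by 2.23 and 3.01 and Ctsl by 1.90 and 2.77. Marchf1, a ubiquitin ligase that removes class II from the surface, was the gene that fell (log2 -1.06 and -0.63). On day 14 the 5 called genes were H2-Oa and H2-Ob, chains of the H2-DM inhibitor H2-O, the thiol reductase Ifi30, Ctss and Ctsl, at log2 1.58 to 2.45. In the PIZ 6 were called higher and Marchf1 lower on day 3 and 0 on days 7 and 14, and the EZ minus PIZ effect was called for 6 on day 7. H2-DMb2, the copy of H2-DMb1, changed by log2 1.86 and 3.14 in the EZ on days 3 and 7 and by 1.79 in the PIZ on day 3, much like H2-DMb1. For this list and those below, the share of all genes called higher was 2.32% in the EZ on day 14. It was 7.12%, 0.15% and 0.00935% in the PIZ on days 3, 7 and 14, and 7% for the EZ minus PIZ effect on day 7. Shares of all genes called lower after kainate are not given here.

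Among 16 genes of class II transcription and the interferon-gamma axis, 15 could be tested, and Ifng itself had 0 counts in 40 of 48 libraries and at most 2 in any. On day 3 in the EZ 5 were called higher, against 16.1% of all genes tested, and the median log2 change of the list was 0.25. Among the 5 were the interferon regulatory factors Irf1 (log2 1.09) and Irf8 (1.90), the signaling inhibitor Socs1 (2.96) and Rfxank (0.61), a subunit of the Rfx complex. On day 7, 6 were called higher, against 20.6% of all genes tested, at a list median of log2 0.43. The 3 with the highest level, Jak1 (log2 -0.12), Ifngr2 (0.31) and Creb1 (-0.20), were not called. Irf8 reached log2 3.72 and Irf1 1.63, and Nfya, a subunit of NF-Y named here after its value was seen, was called at 1.19. On day 14 only Irf8 was called (log2 2.24). In the PIZ on day 3 the 4 called included Irf8 (log2 2.27), Irf1 (0.97) and Ifngr1 (1.03), and 0 were called on days 7 and 14. Rfx5, the DNA-binding partner in the Rfx complex, stayed between log2 -0.17 and 0.09 in these 6 comparisons without a call. Of the interferon axis the EZ minus PIZ effect on day 7 was called for Ifngr1, Irf1 and Irf8 (log2 1.58, 1.36 and 2.14).

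Of 9 co-stimulatory ligands and receptors 7 could be tested, where 16.1% and 20.6% of all genes tested were called higher in the EZ on days 3 and 7. In the EZ on day 3 the 4 called higher were Cd40 (log2 1.71), the inhibitory ligand Cd274 (1.28) and 2 receptors known from T cells, Cd28 (3.99), which binds Cd86, and Pdcd1 (3.36), which binds Cd274. On day 7, 6 were called, among them the ligands Icosl (1.15), Cd274 (2.12) and Cd80 (1.88). On day 14 Cd274 (1.29) and Pdcd1 (3.03) were called, and in the PIZ on day 3 the same 2 (0.98 and 4.72), with 0 on days 7 and 14. Cd80, which shares its receptors with Cd86, averaged 0.670 CPM over the 48 libraries and Cd86 7.14 CPM. Cd28 had a called EZ minus PIZ effect on day 7 (log2 5.50).

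Markers of several other cell types also differed between kainate and saline mice, and their part in these results was not tested. Of all genes tested, 16.1%, 20.6% and 2.32% were called higher in the EZ on days 3, 7 and 14 and 7.12% in the PIZ on day 3. Of 8 microglia markers, 5, 8 and 4 were called higher in the EZ on days 3, 7 and 14 and 8 in the PIZ on day 3, with 0 in the PIZ later. Their summed level had medians of 1353, 2807 and 612.2 CPM in the EZ of kainate mice against 603.5, 459.3 and 418.4 CPM after saline. On day 14 the EZ of mouse 27, the mouse highest for all 8 members, held 2582 CPM of microglia markers against 491.4 to 670.6 CPM in the other 3 kainate mice, and 21.3 against 5.39 to 6.47 CPM of border-associated macrophage markers. In the PIZ the medians were 1010, 603.6 and 371.8 CPM against 365.7, 377.3 and 354.7 CPM. The microglia sum thus rose on both sides on day 3, where Cd86 and H2-DMb1 did too. Of 7 border-associated macrophage markers, 4 and 5 were called in the EZ on days 3 and 7 and 0 in the other 4 comparisons of kainate with saline, with a summed level of 17.1 to 66.8 CPM against 7.68 to 13 CPM on day 3 and 9.18 to 73.0 CPM against 5.79 to 7.22 CPM on day 7. The mice highest in Cd74, mice 38 and 42 on day 3 and mice 21 and 35 on day 7, were also highest in this sum (66.8 and 54.2 CPM, 73.0 and 69.2 CPM), in the microglia sum (1871 and 1452 CPM, 5061 and 3577 CPM) and in the dendritic cell sum (41.2 and 36.6 CPM, 43.0 and 33.3 CPM). The dendritic cell sum was carried by Flt3, Zbtb46 and Itgax (means of 9.38, 8.13 and 4.24 CPM over the 48 libraries). Xcr1, Clec9a, Cd209a, Ccr7 and Clec10a averaged 0.0901 to 0.335 CPM. In the PIZ of mouse 23 on day 7 the border-associated macrophage sum was 5.85 CPM, the lowest of the 4 kainate mice. In the PIZ of mouse 27 on day 14 it was 10.2 CPM, the highest of the 4.

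Monocyte markers were called for 3 of 4 in the EZ on days 3 and 7 (Ccr2, Plac8 and Chil3) and for 0 in the other 4 comparisons of kainate with saline, with a summed level of 15.3 to 59.8 CPM on day 3 against 7.81 to 11.7 CPM. Of 6 dendritic cell markers tested of 8 listed, Itgax, Zbtb46, Clec9a and Ccr7 were called higher and Flt3 lower in the EZ on day 3. On day 7 Itgax, Clec9a and Ccr7 were called higher and Flt3 lower in the EZ. Itgax was also called higher in the EZ on day 14 and in the PIZ on days 3 and 7, while Xcr1 and Clec9a had 0 counts in 29 and 27 libraries. The B cell markers Cd79b and Pax5 were called in the EZ on days 3 and 7, but Ms4a1 had 0 counts in 22 libraries and at most 5 in any, and the summed level of the 5 listed stayed at or under 4.63 CPM. Of 6 T cell markers 2 could be tested, and 1 of these (Cd4) was called, in the EZ on day 7. The 6 summed to between 1.38 and 5.64 CPM there and to 5.35 CPM in the EZ of mouse 27 on day 14, and Cd3d had 0 counts in 27 libraries. All 3 meningeal fibroblast markers (Dcn, Col1a1 and Lum) were called higher in the EZ on days 3 and 7, and their sum was 24.8 CPM in the PIZ of mouse 23 on day 7 (others 23.9 to 102.5 CPM) and 43.2 CPM in that of mouse 27 on day 14 (others 13.7 to 22.6 CPM). The neutrophil, choroid plexus and blood markers that could be tested (2 of 3, 2 of 3 and 3 of 3) were called in none of the 6 comparisons. The choroid plexus sum in the PIZ on day 7 was 0.374 to 2.08 CPM after kainate and 0.101 to 0.383 CPM after saline. Of 5 granule cell markers 2 fell in the EZ on day 3 (Calb1 and Dsp), 2 on day 7 (Calb1 and Rbfox3) and 1 in the PIZ on day 3 (Calb1).

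Relative to the summed microglia markers of the same library, the members separated into different patterns. Cd86 stood at a median of 8.67 CPM per 1000 CPM of microglia markers (8.18 to 9.64) in the EZ of kainate mice on day 3 and at 7.50 (6.57 to 8.21) in saline mice, and on day 7 at 9.27 (8.44 to 10.7) and 7.29 (5.78 to 8.03). Cd74 stood at 33.6 (7.75 to 47.0) against 3.79 (3.24 to 5.01) in the EZ on day 3 and at 14.3 (12.4 to 16.9) against 8.83 (4.27 to 10.2) on day 7. In the PIZ on day 3 the Cd74 value was 2.49 (1.74 to 4.0) against 2.57 (1.5 to 3.19). Over the 12 groups the medians of Cd86 lay between 5.02 and 9.70 and those of Cd74 between 2.49 and 33.6. Cd86 was higher in kainate than in saline mice on this scale without overlap in the EZ on days 7 and 14 (9.70 against 7.02 on day 14) and in the PIZ on day 7 (9.65 against 5.72). H2-DMa was lower than in saline mice on this scale, without overlap, at medians of 11.4 against 23.9 in the EZ on day 3, 7.26 against 30.7 in the EZ on day 7 and 12.2 against 32.2 in the PIZ on day 3. In the PIZ on day 3, H2-Aa, H2-Ab1 and H2-DMb1 were higher without overlap, at 1.28 against 0.486, 1.64 against 0.729 and 4.56 against 2.24, while H2-Eb1 overlapped at 1.18 against 1.53. In the PIZ of mouse 23 on day 7 the Cd74 value was 62.0, against 4.90 to 6.71 in the other 3 kainate mice, and in the PIZ of mouse 27 on day 14 it was 28.2. These ratios are a description and were not tested.

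**Figure D4:**
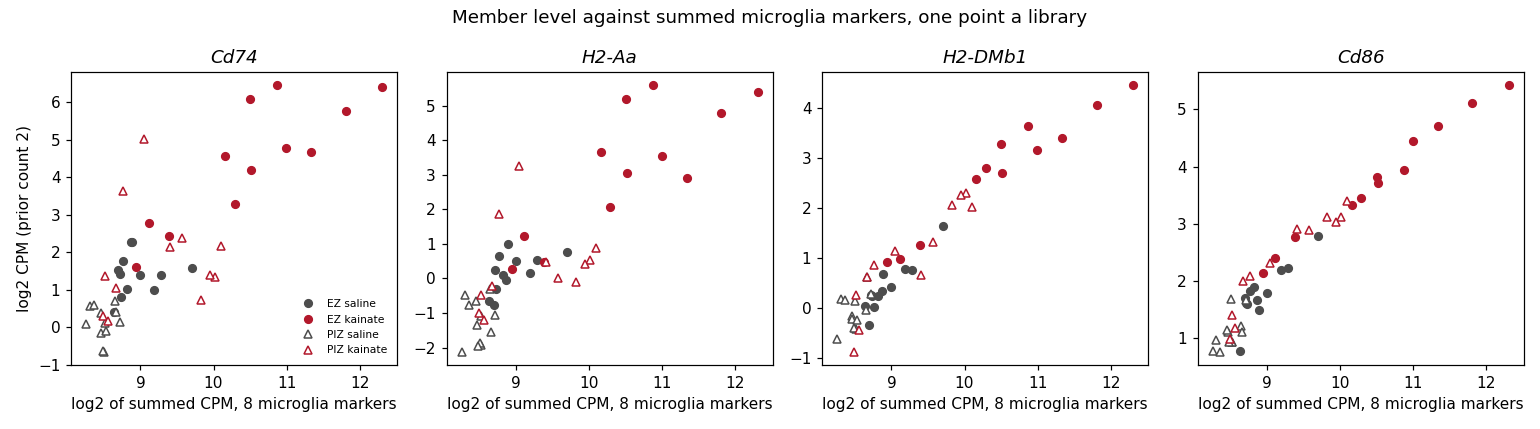
Level of Cd74, H2-Aa, H2-DMb1 and Cd86 (y axis, log2 CPM with a prior count of 2) against the log2 of the summed CPM of 8 microglia markers (x axis) in 48 libraries; filled circles are EZ and open triangles PIZ, red kainate and grey saline. Cd86 and H2-DMb1 lie closer to 1 line over both sides, while Cd74 and H2-Aa spread widely, with 2 PIZ libraries of kainate mice far above the rest of the PIZ. Per 1000 CPM of microglia markers, the group medians of H2-DMb1 still ran from 2.11 to 6.05.

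Among themselves the members formed tight and loose pairs over the 48 libraries, which are 2 per mouse and separated by group, so these correlations of log2 CPM are descriptions. The 6 pairs of Cd74, H2-Aa, H2-Ab1 and H2-Eb1 had Pearson's r between 0.95 and 0.98, and between 0.85 and 0.95 once group means were removed. H2-DMb1 and Cd86 had r = 0.96 (0.82 without group means). H2-DMa was the loosest, with r between 0.69 and 0.77 to the other 7 members. Among the 5 genes outside the list most like H2-DMa, the member with the highest mean log2 CPM, were Nhlrc3, Psap, Cln3 and Gas6 (r 0.85 for each, Spearman's rho 0.42 to 0.59). Psap encodes the precursor of lysosomal activator proteins. Without group means the nearest 5 included Arrb2, Sirpa, Klc4 and Cln3 (r 0.77 to 0.82), so Cln3 was in both sets, and no other member was among the nearest 5 in either. In the EZ of kainate mice the ratio of H2-Aa to H2-Ab1 counts was 0.961 to 1.07 on day 3 and 0.844 to 1.05 on day 7, and Cd74 had 1.87 to 2.26 and 1.89 to 2.13 counts for each count of H2-Ab1. On day 14 these ranges were wider, at 0.711 to 1.82 for H2-Aa and 2.42 to 4.82 for Cd74. In the EZ of saline mice Cd74 had 1.76 to 2.6 counts on day 3, which overlapped kainate, 3.07 to 3.33 on day 7 and 3.06 to 8.14 on day 14.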

How the data were processed

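Poly-A RNA of single dentate gyri was sequenced in 48 libraries, which were not pooled. Per the authors' methods and the processing notes, reads were trimmed with fastp 0.20.1, aligned to GRCm39 with HISAT2 2.2.1 and assigned to Gencode genes with featureCounts (Subread 1.6.4) by strand. The authors deposited raw counts per gene and library, without normalization. From these counts, edgeR 4.0.16 in R 4.3.3 was used with filterByExpr, TMM scaling and a quasi-likelihood fit of 12 group means to all 48 libraries. Genes were called at a Benjamini-Hochberg adjusted p under 0.01, over all genes of a comparison, with a fold change over 1.5, the thresholds of the study. The SE of a log2 fold change was its size divided by the square root of F. Single libraries were given as CPM with TMM scaling, or as log2 CPM with a prior count of 2. RPKM used the exon length of the Gencode annotation in the reference files, to whose identifiers 98.9% of the genes matched. That length joins all exons of a gene, so it understates genes with many rare exons. Only the comparison of kainate with saline in the EZ on day 3 was checked on simulated counts. Library totals lay between 17762656 and 25712975 counts, and values from fewer than about 10 counts, as for Ciita after saline, are imprecise. Groups and mouse numbers came from the sample records. Each group held 4 mice, and both sides came from the same mouse. After removal of group means the sides of a mouse correlated between -0.054 and 0.376 over genes, above 0 in 23 of 24 mice, and the mouse entered as a block in an alternative. DESeq2 1.42.0, RLE scaling, other filters, an adjusted p under 0.05, fits to the compared libraries alone and leaving out each mouse were the other alternatives. The 8 members, the gene lists and the markers were chosen with earlier results of these data known. Named genes were the 8 members, the called genes of a list where 5 or fewer and otherwise its 3 with the highest mean log2 CPM, and the 5 genes most correlated with the highest member. Some genes that this rule names are not reported here. Intervals of count ratios were exact (95%, scipy 1.17.1). Promoter sequences came from RefSeq on GRCm38.p6, and no coordinates were converted between builds.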

Additional observations from a re-analysis of the deposited data

Results flagged for a closer look

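Of 96 groups of 4 libraries (8 members in 12 groups), 4 held a library that stood apart from the other 3 by Dixon's test at the 95% level, which chance alone gives in about 1 in 20 groups. Cd74 in saline mouse 41 (PIZ, day 3) was at -0.65 log2 CPM, below the 0.09 of its nearest neighbour. H2-Ab1 in kainate mouse 23 (PIZ, day 7) was at 2.84, and its nearest neighbour at 0.67. H2-DMb1 in kainate mouse 27 (EZ, day 14) was at 3.41, with the nearest at 1.26. Cd86 in saline mouse 31 (EZ, day 14) was at 0.78, below the 1.6 of the nearest. Without either of the last pair, mice 27 and 31, H2-DMb1 and Cd86 were no longer called in the EZ on day 14, and the same held without saline mouse 39.

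The kainate effect on H2-DMb1 was called as different between the sides on day 7, with the EZ effect larger by log2 2.69 (SE 0.62, edgeR adjusted p = 0.00336). That call was lost without kainate mouse 21 or 35 or without saline mouse 20 or 89. H2-DMb1 was higher in the EZ than in the PIZ in 4 of 4 kainate mice, with ratios from 3.03 to 15.1, and in 3 of 4 saline mice, with ratios from 0.754 to 1.45.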

How the results depend on the processing

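No value of a member that was called changed direction under any alternative, and RLE scaling and leaving out the low-count filter kept the number of members called within 1.5 times in each of the 13 comparisons. Requiring 10 counts in every library left 4 members to test and called 3 in the EZ on day 3 and 4 on day 7. Fits to the compared libraries alone called 0 members in the EZ on day 14, 5 in the PIZ on day 3, 1 in the PIZ on day 7 and 4 between the saline sides. An adjusted p under 0.05 called 4 in the PIZ on day 3, 2 in the PIZ on day 7 and 3 for the EZ minus PIZ effect on day 7. DESeq2 called 5 in the PIZ on day 3 and 2 in the PIZ on day 7. Both DESeq2 and an adjusted p under 0.05 called 3 in the EZ on day 14. With the mouse as a replicate block, 2 were called for the EZ minus PIZ effect on day 7, and the pairing changed no other count (0 on days 3 and 14 and between the saline sides). Leaving out single mice gave 0 to 3 members in the EZ on day 14, 0 to 4 for the EZ minus PIZ effect on day 7 and 0 to 4 for the EZ effect of day 14 minus day 7. The share of all genes called also shifts with the setting, so these counts alone do not measure how robust the members are. Of 1654 single-gene values under alternatives, 31 gained and 19 lost a call, and the 48 whose sign differed from the reported value were of results that were not called. Apart from the fewer genes tested under the stricter filter, the cause of these shifts was not tested. Depth limits Ciita, with at most 9 counts in a saline library.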
